A study of Mus musculus with 16 samples.

Results

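The genes described are 36 mouse genes of cholesterol and fatty acid synthesis, namely 17 enzymes of the sterol pathway, 15 enzymes that make, desaturate, elongate or esterify fatty acids, and 4 regulators or sterol carriers. They were chosen by name for their place in these pathways, with earlier results of these data known. Shares and medians of the set are therefore a description. A probe set was taken for a gene if the platform annotation gave it to that gene alone, and of a gene's probe sets the one with the highest mean was used. This found 70 probe sets for 35 of the 36 genes, out of 12394 genes with such a probe set on the array. No probe set was matched to Insig1, which encodes a protein that holds the SREBP precursors in the endoplasmic reticulum, and it has no values here. RNA came from 7 mammary tumours of mice transgenic for constitutively active STAT5, named STAT5ca, from 6 mammary tumours of mice with the C-terminally truncated STAT5Δ750, and from 3 normal mammary glands. Both transgenic strains were on the FVB/N background, which is also the background given for the glands. STAT5 is the transcription factor that carries prolactin signals to milk genes in mammary epithelium. The promoter that drives each transgene, the age of the mice and the stage of the glands are not given in the sources used here. Nothing in the labels says whether the tumours of a group came from separate mice, so p-values measure the spread between these samples.

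Cholesterol is built from acetyl-CoA through mevalonate, farnesyl diphosphate, squalene and lanosterol, and fatty acids are built from the same acetyl-CoA by acetyl-CoA carboxylase and fatty acid synthase. The membrane-bound factors SREBP1 and SREBP2, encoded by Srebf1 and Srebf2, are cleaved when sterols run low and then switch on the enzymes of both pathways. SREBP2 is known mainly for sterol enzymes, and SREBP1 for fatty acid enzymes. In the mammary gland, lipid synthesis takes place in the fat cells that surround the ducts and, during lactation, in the secretory epithelium, which fills milk with fat. Dividing cells also draw on both pathways for new membranes.

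SREBP binds sterol response elements and, at many of its targets, acts together with the factors NF-Y, which binds CCAAT, and Sp1, which binds GGGCGG. RefSeq promoter sequence on the GRCm38.p6 build was found for 28 of the 36 genes, and the 250 bases before each gene's start were searched on both strands for 4 motifs. These were TCACNCCAC, the sterol response element as in the low density lipoprotein receptor gene, CACGTG, an E-box, and CCAAT and GGGCGG. Of the windows, 4 sterol genes and 1 fatty acid gene are shown, since they span the range from several matches to none, with the letters of a match in capitals on whichever strand it lies. In these windows no match overlaps another. Hmgcs1, the synthase at the entry of the mevalonate pathway, is at chr13:119690101-119690350 on the plus strand. Idi1, isopentenyl diphosphate isomerase, is at chr13:8885356-8885605 on the plus strand, and Cyp51, lanosterol demethylase, at chr5:4104698-4104947 on the minus strand. Dhcr7, the reductase of the last step to cholesterol, is at chr7:143822917-143823166 on the plus strand. Elovl6, the elongase that lengthens palmitate, is at chr3:129532136-129532385 on the plus strand.
Hmgcs1: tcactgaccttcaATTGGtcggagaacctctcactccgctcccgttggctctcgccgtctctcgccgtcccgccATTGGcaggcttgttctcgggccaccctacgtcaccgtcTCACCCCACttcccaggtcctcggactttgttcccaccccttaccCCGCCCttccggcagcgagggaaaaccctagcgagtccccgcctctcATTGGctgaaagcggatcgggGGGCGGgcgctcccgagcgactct
Idi1: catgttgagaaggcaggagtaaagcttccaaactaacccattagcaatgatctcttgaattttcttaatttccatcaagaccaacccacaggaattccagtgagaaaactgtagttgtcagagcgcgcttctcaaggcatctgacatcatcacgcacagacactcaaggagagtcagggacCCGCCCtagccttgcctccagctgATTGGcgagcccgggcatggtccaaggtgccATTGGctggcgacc
Cyp51: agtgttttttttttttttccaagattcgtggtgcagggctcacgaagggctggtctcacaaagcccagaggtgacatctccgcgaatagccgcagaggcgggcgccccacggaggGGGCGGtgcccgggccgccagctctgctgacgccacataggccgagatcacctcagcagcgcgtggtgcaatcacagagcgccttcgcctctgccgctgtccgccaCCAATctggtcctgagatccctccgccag
Dhcr7: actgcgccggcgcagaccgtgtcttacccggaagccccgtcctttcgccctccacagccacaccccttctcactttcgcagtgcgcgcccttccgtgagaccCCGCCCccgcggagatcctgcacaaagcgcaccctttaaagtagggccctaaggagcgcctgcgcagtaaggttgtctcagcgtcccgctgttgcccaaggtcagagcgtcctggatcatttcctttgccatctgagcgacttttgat
Elovl6: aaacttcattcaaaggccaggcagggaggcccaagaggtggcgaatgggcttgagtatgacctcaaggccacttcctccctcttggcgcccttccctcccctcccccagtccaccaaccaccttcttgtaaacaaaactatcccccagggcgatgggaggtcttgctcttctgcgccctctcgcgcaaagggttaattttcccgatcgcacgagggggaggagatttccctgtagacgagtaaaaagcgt
The Hmgcs1 window holds TCACCCCAC, 3 CCAAT boxes and 2 GGGCGG boxes, each counted on either strand. Idi1 has 2 CCAAT boxes and Cyp51 has 1, each gene with 1 GGGCGG. Dhcr7 has 1 GGGCGG and no CCAAT in this window, and Elovl6 has none of the 4 motifs.

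CCAAT was in the windows of 13 of 14 sterol enzymes (92.9%), all but Dhcr7, and in 5 of 11 fatty acid enzymes (45.5%). Of 7459 promoters of genes tested on the array, 36.04% held it, and of all 27025 promoters 34.5%. GGGCGG was also in 13 of 14 sterol enzymes and 5 of 11 fatty acid enzymes, against 59.8% of promoters of genes tested and 32.9% of all promoters. TCACNCCAC was in 1 of the 28 genes, Hmgcs1, against 0.912% of promoters of genes tested and 1.04% of all promoters. CACGTG was in 4 of the 28 genes (14.3%), against 8.35% of promoters of genes tested and 6.05% of all promoters. These are matches of letters in a short window and were not tested as binding sites.

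Signals are the authors' MAS5 intensities, used as log2 of the signal plus 8, and a change is the difference between group means on that scale. Precision is limited by the number of arrays, 7, 6 and 3. Median signals ran from 57.3 to 83.6 in STAT5ca tumours, from 72.2 to 81.1 in STAT5Δ750 tumours and from 77.2 to 90.7 in glands. The 3' over 5' signal ratio of beta-actin, a control for RNA degradation that is higher in degraded RNA, was 1.76 to 5.38 in STAT5ca tumours, 1.27 to 3.52 in STAT5Δ750 tumours and 1.07 to 1.25 in glands, so that every tumour lay above every gland. The array STAT5ca_177 stood apart, correlating with the rest of its group at 0.716 on average, where the other STAT5ca arrays reached 0.823 to 0.872. Its label is mammary tumour like the others, yet Krt8, the luminal keratin 8, had a signal of 25.3 there and of 3836 to 5376 on the rest of the STAT5ca arrays. Its mean log2 level over 9 macrophage markers was 10.86, the highest of its group. Stat5a, the gene of one STAT5 protein, had signals of 103 to 610 in STAT5ca tumours, 98.6 to 587 in STAT5Δ750 tumours and 392.3 to 683 in glands, and these do not tell the transgene from the mouse's own gene.

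Fat cell markers moved with the comparison of tumour and gland. Of 13 adipocyte markers tested, 12 fell in STAT5ca tumours and 12 in STAT5Δ750 tumours. Their mean log2 level was 5.69 to 7.42 on STAT5ca arrays and 5.52 to 7.55 on STAT5Δ750 arrays, against 10.08 to 10.18 on glands. Adipoq, the adipocyte hormone adiponectin, had signals of 0.8 to 198 in STAT5ca tumours and 7.6 to 414 in STAT5Δ750 tumours, against 4505 to 5063 in glands. Cidec, a lipid droplet protein of fat cells, had 0.3 to 28.7 and 0.4 to 46 in STAT5ca and STAT5Δ750 tumours, against 762 to 786 in glands. Other marker lists moved too. Of 11 mitosis markers tested, 11 rose in each tumour type, with a mean log2 level of 7.26 to 9.64 on STAT5ca arrays and 8.73 to 9.49 on STAT5Δ750 arrays, against 6.61 to 7.22 on glands. Of 10 luminal epithelium markers, 1 rose in STAT5ca tumours and 3 in STAT5Δ750 tumours, with levels of 5.30 to 11.44 on STAT5ca arrays and 10.49 to 11.32 on STAT5Δ750 arrays, against 8.40 to 9.74 on glands. Of 10 skeletal muscle markers, 10 fell in STAT5ca tumours and 9 in STAT5Δ750 tumours, with levels of 3.95 to 9.17 on STAT5ca arrays and 4.82 to 10.54 on STAT5Δ750 arrays, against 12.55 to 12.77 on glands. All 8 T and NK cell markers and all 5 B cell markers tested fell in both tumour types. The part of these cell types and of cell division in the changes of the lipid enzymes was not tested. In such bulk samples fewer cells of a type and less RNA per cell cannot be told apart. Csn2, beta-casein of milk, had signals of 345 to 6930 in STAT5ca tumours, 4279 to 9011 in STAT5Δ750 tumours and 4583 to 8747 in glands, so that the groups overlap.

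Between tumour and gland, on the probe sets used, all sterol enzymes that passed the test rose. All but 1 of the fatty acid enzymes that passed fell. In STAT5ca tumours 4 of the 35 genes rose (Fdps, Sqle, Dhcr7 and Scd2) and 4 fell (Fasn, Elovl6, Gpam and Lpin1), by limma at an adjusted p under 0.05. In STAT5Δ750 tumours the same 8 passed in the same directions, Stard4 also rose, and Acss2 also fell. Over all 9261 genes tested, 20.0% were called in STAT5ca tumours (6.72% higher and 13.2% lower), and 21.7% in STAT5Δ750 tumours (7.63% higher and 14.0% lower). Both comparisons share the 3 glands. All 35 genes passed the filter on low signals. Acaca, acetyl-CoA carboxylase, exceeded its limit on only 4 arrays, and Stard4 on 11, all of them tumours.

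Of the 17 sterol enzymes, 3 rose (17.6%) and 0 fell in each tumour type. At an unadjusted p under 0.05 there were 8 (47.1%, beside 33.3% of all genes) in STAT5ca tumours and 7 (41.2%, beside 35.2%) in STAT5Δ750 tumours, Hmgcs1 in STAT5ca tumours being the one below 0. The median change of the 17 was 0.68 in STAT5ca tumours and 0.56 in STAT5Δ750 tumours, with 13 of 17 above 0 in each, beside medians of all genes of -0.02 and -0.04. Of the 15 fatty acid and glycerolipid enzymes, 1 rose (6.67%) in each tumour type, 4 fell (26.7%) in STAT5ca tumours and 5 (33.3%) in STAT5Δ750 tumours. Their median change was -0.46 in STAT5ca tumours and -0.48 in STAT5Δ750 tumours. An unadjusted p under 0.05, in either direction, was found for 8 of them (53.3%) in STAT5ca tumours and 7 (46.7%) in STAT5Δ750 tumours. In a model that includes the actin ratio, the sterol median was 0.03 in STAT5ca tumours and 0.29 in STAT5Δ750 tumours, with 2 sterol enzymes higher in each, while the fatty acid median was -0.98 and -0.75, with 4 and 5 lower. The median change of all genes in that model was -0.11 in STAT5ca tumours and -0.10 in STAT5Δ750 tumours. That model called 1.88% of all genes higher and 8.21% lower in STAT5ca tumours, and 5.53% higher and 12.1% lower in STAT5Δ750 tumours. Without STAT5ca_177, 5 sterol enzymes rose and 5 fatty acid enzymes fell in STAT5ca tumours, with 13.4% of all genes higher and 17.5% lower, and 5 and 6 in STAT5Δ750 tumours, with 11.8% higher and 17.9% lower.

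**Figure D1:**
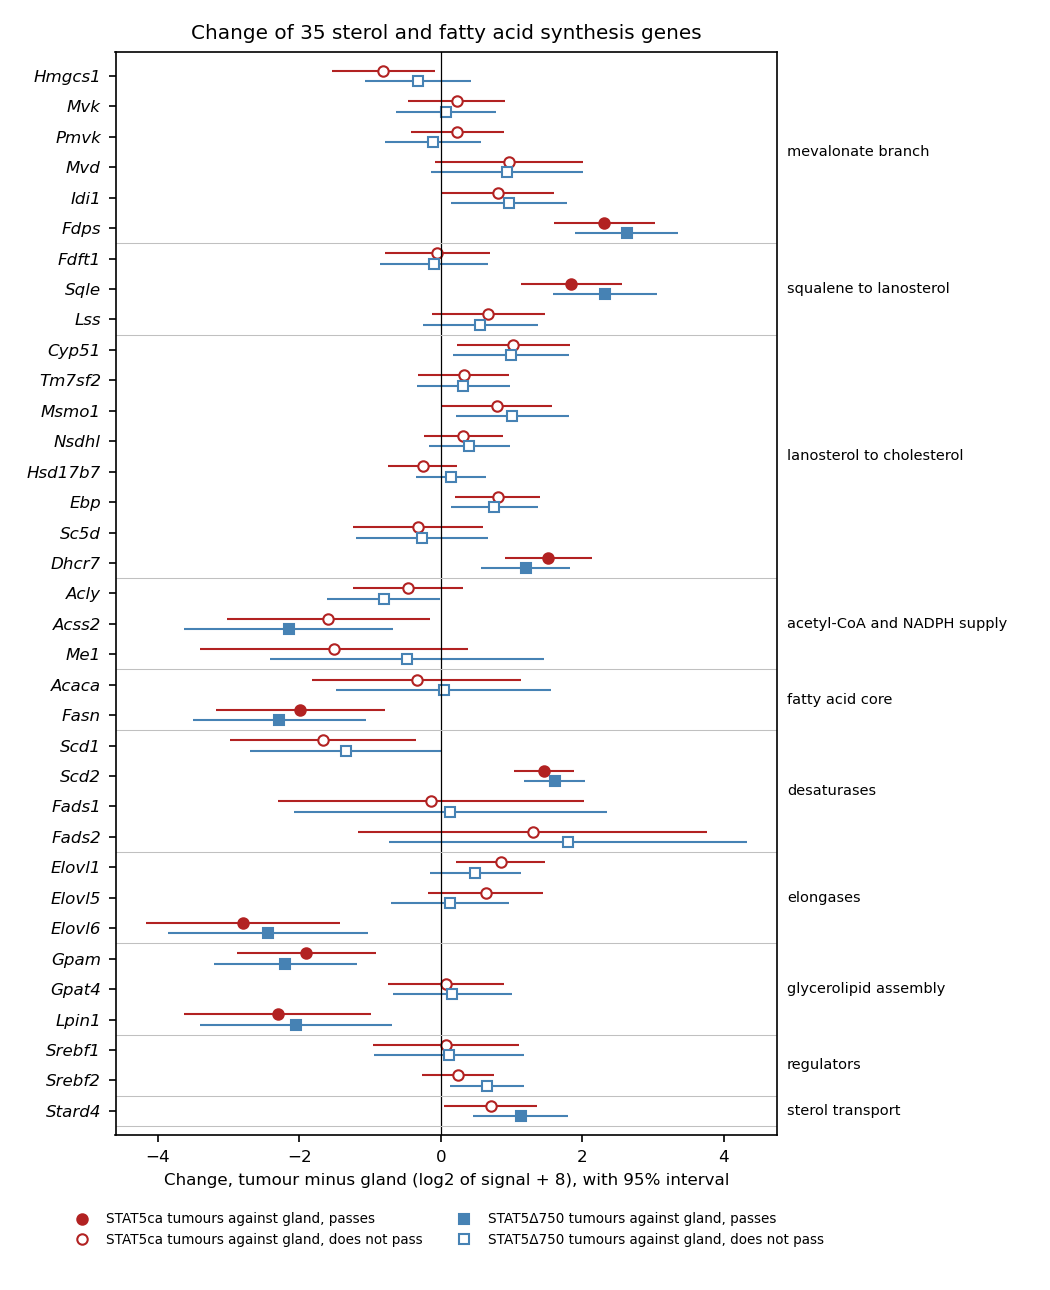
Log2 change in signal of each of the 35 genes, tumour minus gland, with its 95% interval, in STAT5ca tumours (circles) and STAT5Δ750 tumours (squares), grouped by step of the pathways. Filled points pass at an adjusted p under 0.05; they lie right of 0 for Fdps, Sqle, Dhcr7 and Scd2, and left of 0 for Fasn, Elovl6, Gpam and Lpin1, in both tumour types, and in STAT5Δ750 tumours also for Stard4 (right) and Acss2 (left).

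Among the enzymes from acetyl-CoA to farnesyl diphosphate, 1 of 6 rose in each tumour type. This was Fdps, farnesyl diphosphate synthase, which makes the last intermediate shared by sterols and protein prenylation. Its signals in STAT5ca tumours were 667, 964, 1365, 787, 711, 634 and 378, and in STAT5Δ750 tumours 712, 1496, 850, 794, 1252 and 667, against 137, 115 and 180 in glands. Every tumour was at least 378, and no gland was above 180. Fdps rose by 2.31 ± 0.34 (log2 change ± SE, limma, adjusted p = 0.000157) in STAT5ca tumours and by 2.63 ± 0.34 (adjusted p = 9.21e-05) in STAT5Δ750 tumours, folds of 4.97 and 6.18.

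On the probe sets used, the other 5 genes of this branch did not pass. Idi1 had 262 to 1023 (median 409) in STAT5ca tumours and 382 to 822 (median 504) in STAT5Δ750 tumours, against 284, 267 and 244 in glands, with changes of 0.80 ± 0.38 and 0.97 ± 0.39. Of the STAT5ca arrays, 2 lay among the glands, STAT5ca_171 and STAT5ca_177, and all STAT5Δ750 arrays lay above them. Mvd, mevalonate diphosphate decarboxylase, changed by 0.97 ± 0.49 in STAT5ca tumours and 0.94 ± 0.50 in STAT5Δ750 tumours. Its other probe set was at 1.25 and 1.31, and passed in STAT5Δ750 tumours only (limma, adjusted p = 0.0483). Mvk and Pmvk, the 2 kinases that phosphorylate mevalonate, lay within 0.24 of 0 in both by the probe sets used, while the other probe set of Mvk was at 0.94 and 0.67. Hmgcs1 lay below 0, with signals of 336 to 1278 (median 629) in STAT5ca tumours and 624 to 1401 (median 880) in STAT5Δ750 tumours, against 1410, 1230 and 836 in glands. Its changes were -0.81 ± 0.34 (adjusted p = 0.111) and -0.32 ± 0.35 (adjusted p = 0.55), and each of its 4 probe sets lay below 0 in both tumour types. Without STAT5ca_124 it fell in STAT5ca tumours, by 0.98 ± 0.31 (adjusted p = 0.0357, in a range of 0.0105 to 0.345 over the alternatives). The probe sets used for Hmgcs1, Fdft1, Elovl1, Mvd and Lss are of kinds the manufacturer marks as possibly shared with other transcripts.

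Between farnesyl diphosphate and lanosterol, 1 of 3 enzymes rose in each tumour type. Sqle, squalene epoxidase, had signals of 762, 642, 792, 502, 510, 380 and 350 in STAT5ca tumours and 509, 858, 1539, 588, 601 and 782 in STAT5Δ750 tumours, against 164, 102 and 178.3 in glands. The tumours and the glands did not overlap. Sqle rose by 1.84 ± 0.34 (limma, adjusted p = 0.0011) in STAT5ca tumours and by 2.32 ± 0.34 (adjusted p = 0.000259) in STAT5Δ750 tumours. Fdft1, squalene synthase, which stands just before it, changed by -0.05 ± 0.35 and -0.09 ± 0.36, so that the 95% intervals of both exclude a doubling. Lss, lanosterol synthase, just after it, changed by 0.68 ± 0.37 and 0.56 ± 0.38 and did not pass. The other probe set of Lss past the filter was at 0.20 and 0.11 and did not pass either.

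From lanosterol to cholesterol, 1 of 8 enzymes rose, the last one. Dhcr7 had signals of 488, 332, 317, 208, 372, 353 and 231 in STAT5ca tumours and 228, 354, 205, 411, 174.5 and 217 in STAT5Δ750 tumours, against 122, 112 and 85.9 in glands. The lowest tumour, at 174.5, was above the highest gland, at 122. Dhcr7 rose by 1.52 ± 0.29 (limma, adjusted p = 0.00152) in STAT5ca tumours and by 1.20 ± 0.30 (adjusted p = 0.00927) in STAT5Δ750 tumours. With the actin ratio in the model it did not pass in either, at adjusted p = 0.0888 in STAT5ca tumours and 0.0523 in STAT5Δ750 tumours, the highest over the alternatives run for each.

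Cyp51 had 133 to 475 (median 196) in STAT5ca tumours and 172 to 443 (median 212) in STAT5Δ750 tumours, against 126, 103 and 110 in glands. On the probe set used the groups do not overlap, yet its changes of 1.02 ± 0.38 and 0.997 ± 0.38 did not pass (adjusted p = 0.067 and 0.0762). On its other probe set past the filter, tumours of both types overlapped the glands (40.1 to 52.2). The changes there were 0.31 and 0.72 and did not pass. Ebp, the sterol isomerase, changed by 0.81 ± 0.28 (adjusted p = 0.0559) and 0.75 ± 0.29 (adjusted p = 0.0743). Without STAT5ca_177 both Cyp51 (1.16 ± 0.36, adjusted p = 0.0235) and Ebp (0.94 ± 0.25, adjusted p = 0.01) passed in STAT5ca tumours, and both passed in STAT5Δ750 tumours. Msmo1, a sterol demethylase, changed by 0.80 ± 0.37 in STAT5ca tumours and 1.01 ± 0.38 in STAT5Δ750 tumours, and in neither did it pass. The other 4 enzymes of this stretch, the reductase Tm7sf2, the dehydrogenases Nsdhl and Hsd17b7 and the desaturase Sc5d, lay between -0.32 and 0.40 and did not pass.

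**Figure D2:**
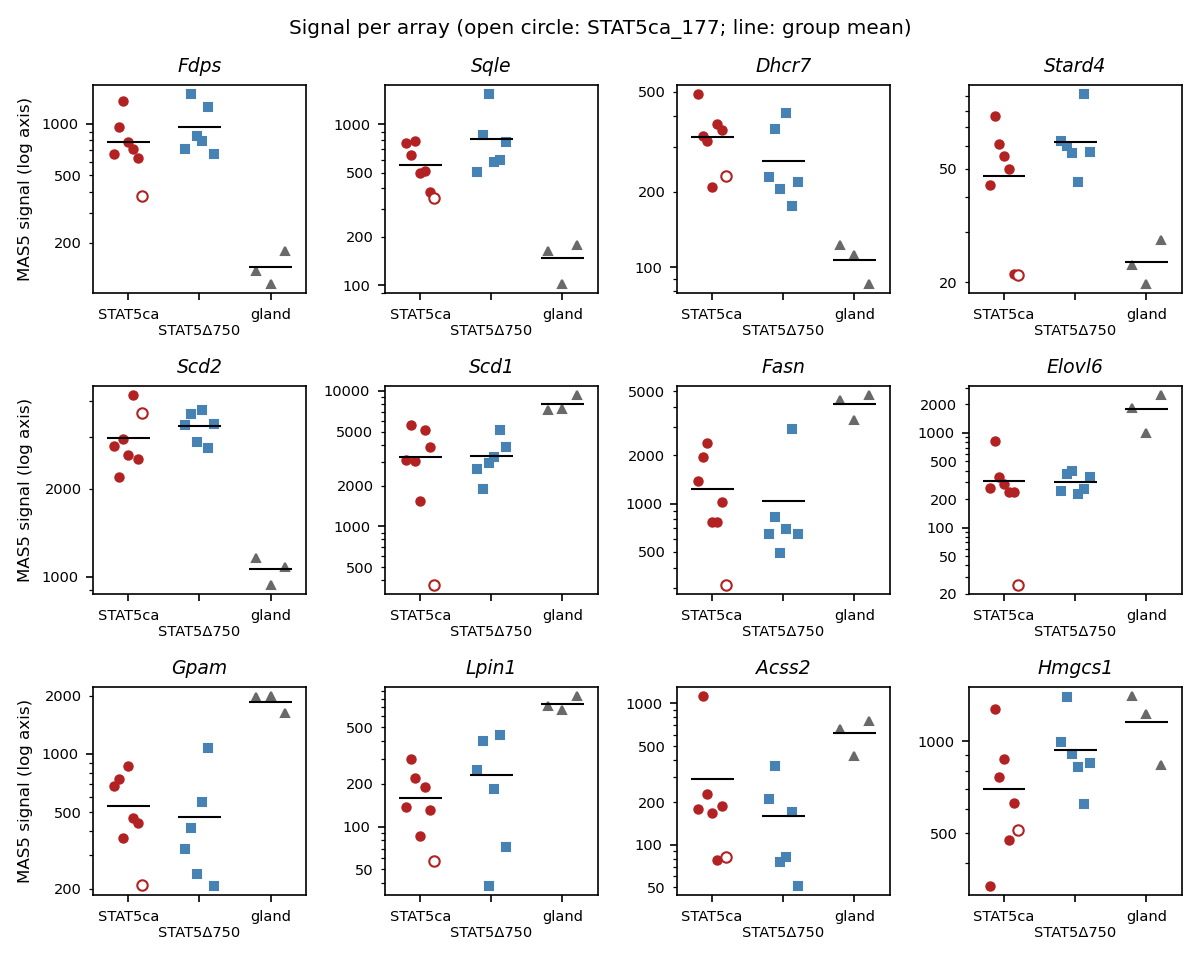
MAS5 signal (log axis) of the probe set used for each of 12 genes, per array. STAT5ca tumours are circles (STAT5ca_177 open), STAT5Δ750 tumours squares and glands triangles, and lines are group means. For Fdps, Sqle, Dhcr7 and Scd2 every tumour lies above every gland, and for Scd1, Fasn, Elovl6, Gpam and Lpin1 every tumour lies below every gland.

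Of the 3 enzymes that supply acetyl-CoA and NADPH, 1 fell in STAT5Δ750 tumours and 0 passed in STAT5ca tumours. Acss2, which makes acetyl-CoA from acetate, had signals of 180, 1129, 230, 168, 77.6, 188 and 82.6 in STAT5ca tumours and 212, 362, 75.6, 81.9, 170 and 51.5 in STAT5Δ750 tumours, against 664, 427 and 753 in glands. One STAT5ca tumour, STAT5ca_124, lay above all glands, and the other tumours lay below them. Acss2 changed by -1.59 ± 0.68 (limma, adjusted p = 0.114) in STAT5ca tumours and fell by 2.15 ± 0.69 on the log2 scale (adjusted p = 0.0374) in STAT5Δ750 tumours. The tumour types differed by 0.56 ± 0.55 (adjusted p = 0.927), so the calls are not shown to differ. Without STAT5ca_124, Acss2 also fell in STAT5ca tumours, by 2.00 ± 0.52 (adjusted p = 0.0133, in a range of 0.0102 to 0.271 over the alternatives). Acly, which makes acetyl-CoA from citrate, and Me1, malic enzyme, did not pass. They changed by -0.46 ± 0.37 and -1.51 ± 0.89 in STAT5ca tumours and by -0.80 ± 0.38 and -0.48 ± 0.91 in STAT5Δ750 tumours. Without STAT5ca_177, where Me1 had a signal of 24.3, its change in STAT5ca tumours was -0.83 ± 0.47 and did not pass. The other probe set of Me1 was at -1.73 in STAT5ca and -1.10 in STAT5Δ750 tumours and did not pass.

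Fasn, fatty acid synthase, had signals of 1377, 1950, 2375, 771, 773, 1016 and 313 in STAT5ca tumours and 647, 823, 496, 695, 2889 and 648 in STAT5Δ750 tumours, against 4436, 3287 and 4723 in glands. No tumour reached the lowest gland. Fasn fell by 1.99 ± 0.56 on the log2 scale (limma, adjusted p = 0.0206) in STAT5ca tumours and by 2.28 ± 0.58 (adjusted p = 0.0109) in STAT5Δ750 tumours. In STAT5ca tumours this call was lost without each of the 3 glands in turn, at adjusted p up to 0.0824. Acaca had signals of 7.9 to 43.6 in STAT5ca tumours, 6.4 to 186 in STAT5Δ750 tumours and 7.4 to 60.2 in glands, close to the offset, and no change can be read from it.

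The 2 stearoyl-CoA desaturases, which put the first double bond into saturated fatty acids, lay on opposite sides of 0. Scd2, the form known from mouse brain, had signals of 2790, 2196, 2959, 2614, 4173, 2529 and 3621 in STAT5ca tumours and 3306, 3593, 2875, 3701, 2762 and 3324 in STAT5Δ750 tumours, against 1161, 940 and 1080 in glands. On the probe set used, every tumour was above every gland. On another, STAT5ca_123 and STAT5ca_124 (205 and 236) lay among the glands (122 to 365), while its changes of 1.77 and 2.63 passed. On the one with the lowest mean, several STAT5ca tumours lay within the gland range of 5.1 to 50.8. Its changes did not pass (limma, adjusted p = 0.315 in STAT5ca and 0.0692 in STAT5Δ750 tumours). Scd2 rose by 1.46 ± 0.20 (limma, adjusted p = 8.76e-05) in STAT5ca tumours and by 1.61 ± 0.20 (adjusted p = 6.84e-05) in STAT5Δ750 tumours, the smallest standard errors among the 35 genes.

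Scd1, the form known from fat, liver and the lactating gland, had signals of 3065, 5619, 3042, 1533, 5116, 3840 and 371 in STAT5ca tumours and 2630, 1884, 2919, 3242, 5156 and 3882 in STAT5Δ750 tumours, against 7242, 7330 and 9317 in glands. On the probe set used, every tumour was below every gland, while on the other, tumours overlapped the glands (310 to 1757). Its changes of -1.66 ± 0.62 (adjusted p = 0.0722) and -1.34 ± 0.64 (adjusted p = 0.148) did not pass, and without STAT5ca_177 it fell by 1.21 ± 0.37 on the log2 scale (adjusted p = 0.021) in STAT5ca tumours and by 1.34 ± 0.37 (adjusted p = 0.0134) in STAT5Δ750 tumours. Without STAT5ca_124 it also passed in STAT5ca tumours (adjusted p = 0.0465, in a range of 0.0011 to 0.198 over the alternatives). All 3 probe sets of Scd2 lay above 0 and both of Scd1 below 0 in each tumour type.

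Fads1 and Fads2, the desaturases of polyunsaturated fatty acids, spread most among the STAT5ca tumours. Fads2 had signals of 10 to 1940 (median 1243) in STAT5ca tumours and 238 to 1739 (median 642) in STAT5Δ750 tumours, against 123.8, 151 and 248 in glands. Fads1 had 82.9 to 2953 (median 1390) and 279 to 2864 (median 921) in these tumour groups, against 674, 594 and 1285 in glands. The changes of Fads2 and Fads1 were 1.30 ± 1.16 and -0.14 ± 1.02 in STAT5ca tumours and 1.80 ± 1.19 and 0.14 ± 1.04 in STAT5Δ750 tumours. Their 95% intervals were wide, reaching from -2.30 to 2.02 for Fads1 and from -1.17 to 3.77 for Fads2 in STAT5ca tumours. Without STAT5ca_177, which had the Fads2 signal of 10, Fads2 there was at 2.07 ± 0.82 (limma, adjusted p = 0.0677), with an interval of 0.32 to 3.81. The other probe set of Fads2 was at 1.98 in STAT5ca and 2.23 in STAT5Δ750 tumours and did not pass.

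Of the 3 elongases 1 fell in each tumour type. Elovl6 had signals of 259, 813, 342, 286, 236, 237 and 25 in STAT5ca tumours and 244, 364, 400, 228, 253.7 and 340 in STAT5Δ750 tumours, against 1835, 985 and 2502 in glands. All tumours were below all glands, with STAT5ca_177 at 25 and the next lowest STAT5ca array at 236. Elovl6 fell by 2.80 ± 0.65 on the log2 scale (limma, adjusted p = 0.00623) in STAT5ca tumours and had a change of -2.44 ± 0.66 (adjusted p = 0.0162) in STAT5Δ750 tumours. Without STAT5ca_177 its change in STAT5ca tumours was -2.32 ± 0.37. Elovl1, which makes very long saturated chains, and Elovl5, which lengthens polyunsaturated ones, lay above 0 without passing, at 0.85 ± 0.30 (adjusted p = 0.0559) and 0.64 ± 0.38 in STAT5ca tumours and 0.49 ± 0.30 and 0.13 ± 0.39 in STAT5Δ750 tumours.

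Of the 2 acyltransferases that start triglyceride assembly, 1 fell in each tumour type. Gpam, the mitochondrial glycerol-3-phosphate acyltransferase, had signals of 682, 740, 366, 868, 466.5, 439 and 211 in STAT5ca tumours and 322, 414, 238, 562, 1068 and 208 in STAT5Δ750 tumours, against 1980, 1992 and 1628 in glands. On the probe set used, all tumours were below all glands. Gpam fell by 1.90 ± 0.46 on the log2 scale (limma, adjusted p = 0.00872) in STAT5ca tumours and by 2.20 ± 0.48 (adjusted p = 0.00415) in STAT5Δ750 tumours. On its other probe set tumours overlapped the glands (29.3 to 282), and changes of -1.30 and -1.15 did not pass. Gpat4, the form in the endoplasmic reticulum, had 142 to 566, 243 to 410 and 236 to 444 in STAT5ca tumours, STAT5Δ750 tumours and glands, and changed by 0.08 ± 0.39 and 0.16 ± 0.40.

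Lpin1, the phosphatidate phosphatase lipin 1, had signals of 138, 298, 221, 86.7, 190, 131 and 57 in STAT5ca tumours and 253, 401, 38.5, 184, 440 and 71.8 in STAT5Δ750 tumours, against 711, 668 and 833 in glands. On the probe set used, all tumours were below all glands. On the other, STAT5Δ750_178 (270) lay among the glands (186 to 318), and the change passed in STAT5ca tumours only. Lpin1 fell by 2.30 ± 0.62 on the log2 scale (limma, adjusted p = 0.0156) in STAT5ca tumours and by 2.04 ± 0.64 (adjusted p = 0.0321) in STAT5Δ750 tumours. Both calls were lost without each of the 3 glands in turn, at adjusted p up to 0.0614 and 0.0973. The array STAT5Δ750_178, which had the highest adipocyte level of its group (7.55), had the highest signal of its group for 3 of the 5 enzymes that fell (Fasn, Gpam and Lpin1), but not for Elovl6 or Acss2. It also had the highest levels of its group for skeletal muscle markers (10.54) and milk genes (12.14). STAT5ca_124, with the highest adipocyte level of the STAT5ca arrays (7.42), was highest of its group for 2 of the 4 enzymes that fell (Elovl6 and Lpin1), but not for Fasn or Gpam. The part of fat cells in these values was not tested.

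The regulators' own mRNAs did not pass. Srebf1 had signals of 360 to 3075 (median 1004) in STAT5ca tumours and 673 to 1884 (median 1183) in STAT5Δ750 tumours, against 870, 996 and 1310 in glands, with changes of 0.07 ± 0.49 and 0.12 ± 0.50. Srebf2 had 141 to 328 (median 178.5) in STAT5ca tumours and 194 to 355 (median 266) in STAT5Δ750 tumours, against 137, 173 and 176 in glands. It changed by 0.24 ± 0.24 (limma, adjusted p = 0.518) in STAT5ca tumours and by 0.66 ± 0.25 (adjusted p = 0.0688) in STAT5Δ750 tumours, whose arrays all lay above the glands. SREBP activity depends on cleavage, which arrays do not measure.

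Stard4, a carrier that moves cholesterol between membranes, had signals of 43.9, 76.8, 61, 55.4, 49.9, 21.4 and 21.2 in STAT5ca tumours and 62.8, 59.9, 56.9, 44.9, 91.3 and 57.5 in STAT5Δ750 tumours, against 23, 19.8 and 28.2 in glands. The STAT5Δ750 arrays all lay above the glands, and 2 STAT5ca arrays lay among them. Stard4 rose by 1.13 ± 0.32 (limma, adjusted p = 0.0192) in STAT5Δ750 tumours, with a change of 0.71 ± 0.31 (adjusted p = 0.123) in STAT5ca tumours, which passed without STAT5ca_177 (0.85 ± 0.28, adjusted p = 0.0313). The difference between the tumour types was -0.42 ± 0.25 (adjusted p = 0.894).

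Over the genes as a whole, tumours and glands did not overlap for 5 genes higher and 5 lower in STAT5ca tumours, with 6.73% and 13.3% of all genes. In STAT5Δ750 tumours there were 10 higher and 6 lower, with 14.4% and 20.4% of all genes. For 18 genes with several probe sets past the filter, all probe sets of a gene had the same sign in STAT5ca tumours, and in STAT5Δ750 tumours those of 17 did, all but Elovl5. Sizes differed more, as for Gpam in STAT5Δ750 tumours, from -2.20 to -1.15. The mean log2 level of the 17 sterol enzymes was 7.52 to 8.54 on STAT5ca arrays and 7.84 to 8.50 on STAT5Δ750 arrays, against 7.25 to 7.49 on glands. That of the 15 fatty acid enzymes was 7.61 to 10.02 on STAT5ca arrays, 8.71 to 9.97 on STAT5Δ750 arrays and 9.45 to 10.21 on glands, and overlapped. The sterol level minus the fatty acid level was -1.75 to -0.10 on STAT5ca arrays and -1.88 to -0.82 on STAT5Δ750 arrays, against -2.72 to -2.19 on glands. Every tumour thus had a higher difference than every gland, and STAT5ca_177 had the highest.

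**Figure D3:**
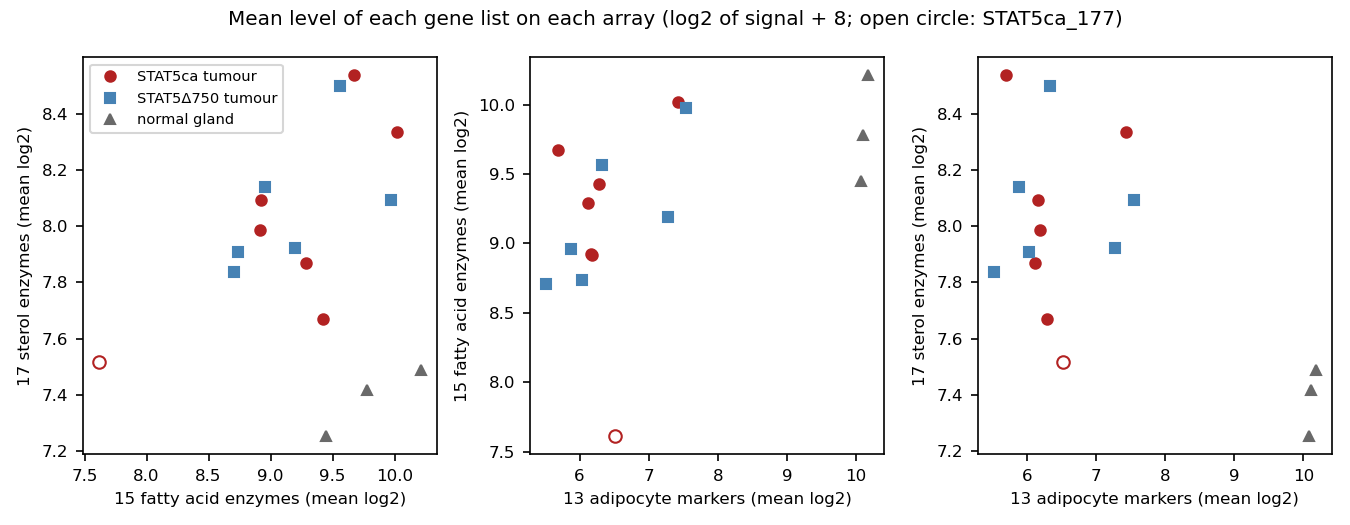
Mean log2 of signal plus 8 per array of the 17 sterol enzymes, the 15 fatty acid enzymes and the 13 adipocyte markers, plotted against one another for STAT5ca tumours (circles, STAT5ca_177 open), STAT5Δ750 tumours (squares) and glands (triangles). Glands lie between 7.25 and 7.49 for sterol enzymes, below all tumours, while for fatty acid enzymes the groups overlap; for adipocyte markers glands lie above 10 and tumours below 8.

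The comparison of STAT5ca with STAT5Δ750 tumours asks whether the form of STAT5 is tied to the level of these genes. By limma 0 of the 35 genes passed, as did 0 of 9261 (0.0%), with the smallest adjusted p of the 35 at 0.872. For 0 of the 35 the tumour types did not overlap, with 0.0864% of all genes higher and 0.054% lower without overlap. At an unadjusted p under 0.05 there were 2 of 35, and 526 of all genes (5.68%). These were Hsd17b7, at -0.40 ± 0.18, and Srebf2, at -0.42 ± 0.19, both lower in STAT5ca tumours. The 95% intervals of 22 of the 35 genes lay within 1 of 0 on the log2 scale, among them Fdps (-0.89 to 0.26), Scd2 (-0.49 to 0.19) and Dhcr7 (-0.17 to 0.81). Those of the other 13 reached further, from -2.55 for Me1 to 1.72 for Acss2, so that differences of 2-fold are not excluded there. The median difference was 0.00 for sterol enzymes and -0.15 for fatty acid enzymes.

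Genes of the same pathways outside the 36 were also read. Of 14 other sterol pathway genes tested, out of 22 listed, 0 rose, 1 fell in STAT5ca tumours (7.14%, beside 13.2% of all genes) and 2 fell in STAT5Δ750 tumours (14.3%, beside 14.0%), with medians of -0.26 and -0.22. Nr1h3, the oxysterol receptor LXR alpha, which promotes cholesterol export and fatty acid synthesis, had signals of 17.7 to 105 in STAT5ca tumours and 20.8 to 38.9 in STAT5Δ750 tumours, against 122 to 140.0 in glands. It fell by 1.67 ± 0.37 on the log2 scale in STAT5ca tumours (limma, adjusted p = 0.00528) and by 1.93 ± 0.38 in STAT5Δ750 tumours (adjusted p = 0.0024). Mylip, a ubiquitin ligase that removes the low density lipoprotein receptor, had signals of 347 to 705 in STAT5Δ750 tumours, against 855 to 1053 in glands, and fell by 0.93 ± 0.25 in STAT5Δ750 tumours.

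Of 26 other fatty acid pathway genes tested, out of 32 listed, 0 rose, 3 fell in STAT5ca tumours (11.5%, beside 13.2% of all genes) and 4 fell in STAT5Δ750 tumours (15.4%, beside 14.0%), with medians of -0.05 and -0.27. The shares that fell are close to those of all genes. Dgat2, which adds the last acyl chain of triglycerides, had signals of 60.2 to 564 in STAT5ca tumours and 39.8 to 195 in STAT5Δ750 tumours, against 1529 to 2088 in glands. Its changes were -3.82 ± 0.59 and -4.30 ± 0.60 (limma, adjusted p = 0.00028 and 0.00017). Acacb, the mitochondrial acetyl-CoA carboxylase, changed by -3.96 ± 0.77 and -4.19 ± 0.79, and Mlxipl, the carbohydrate response factor ChREBP, by -3.04 ± 0.81 and -3.70 ± 0.83, and both passed in both tumour types. Acacb had signals of 2 to 135 in STAT5ca tumours and 1 to 93.1 in STAT5Δ750 tumours, against 396 to 571 in glands. Mlxipl had 9.2 to 549 in STAT5ca tumours and 11 to 92.7 in STAT5Δ750 tumours, against 552 to 665 in glands. No tumour reached the glands for either. Agpat3, an acyltransferase of phospholipid synthesis, had signals of 42 to 208 in STAT5Δ750 tumours, against 305 to 356 in glands, and fell by 1.25 ± 0.38 in STAT5Δ750 tumours.

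Correlations between the enzymes were read over the 13 tumours with each group's mean removed. The median Pearson correlation was 0.32 over 136 pairs of sterol enzymes, 0.35 over 105 pairs of fatty acid enzymes and 0.27 over 255 pairs of a sterol with a fatty acid enzyme, beside 0.02 over pairs of all genes. Without STAT5ca_177 these medians were 0.25, 0.24, 0.14 and 0.01. The arrays share their scaling and their RNA quality across all genes, and these values are a description without a test. The closest pair was Idi1 with Cyp51 (r = 0.91, and 0.89 without STAT5ca_177), followed by Fdps with Cyp51 (0.86). Fads1 went with Fads2 (0.82, and 0.92 without STAT5ca_177).

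Scd2 had a correlation below 0 with 13 of the other 14 fatty acid enzymes and a median of -0.47. Without STAT5ca_177 it was below 0 with 10 of the 14, with a median of -0.37. Its lowest values were -0.70 with Fads1 and -0.69 with Elovl1. The lowest pair of all was Hsd17b7 with Dhcr7 (-0.74). The correlation of Scd1 with Elovl6 was 0.79 over the 13 tumours and 0.17 without STAT5ca_177, so it rests on that array. Median SDs on the log2 scale were 0.56, 0.47 and 0.31 for sterol enzymes and 0.77, 0.78 and 0.42 for fatty acid enzymes in STAT5ca tumours, STAT5Δ750 tumours and glands, beside 0.54, 0.42 and 0.21 for all genes.

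**Figure D4:**
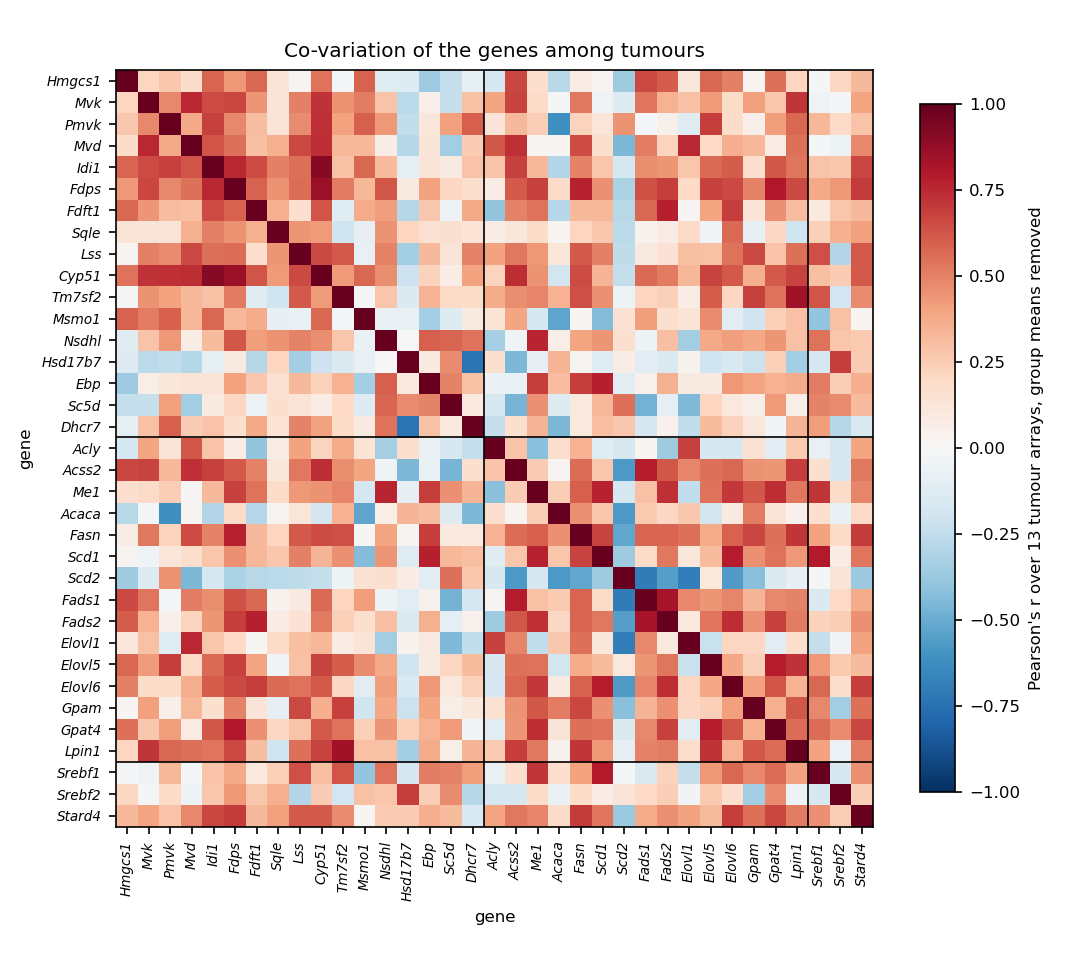
Pearson's r between each pair of the 35 genes over the 13 tumour arrays with group means removed, from -1 (blue) to 1 (red), with lines between sterol enzymes, fatty acid enzymes and the others. Most sterol pairs are red, such as Idi1 with Cyp51 (0.91), while the Scd2 row is blue against most fatty acid enzymes and Hsd17b7 is blue against Dhcr7 (-0.74).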

How the data were processed

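Total RNA (15 ug) from tumours and glands was labelled with biotin and hybridised to Affymetrix Mouse Genome 430A 2.0 arrays, 1 colour and 16 arrays, per the labels' protocols. As deposited, the table holds the authors' MAS5 intensities, on a linear scale for 22690 probe sets, per the submitters' processing notes, which give no version. Trimmed by 2 percent of probe sets at each end, every array had a mean of 250.1, and this scaling was kept. Of the probe sets 20393 carried 1 symbol, 691 several and 1606 none here, and symbols were checked against RefSeq by gene identifier, with 0 changed.

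An offset of 8 was added to each signal before log2. A probe set was kept if above 35.4, the 40th percentile of all signals, on at least 3 arrays, and the one with the highest mean stood for its gene, which left 9261 genes. The 3 groups were fitted in 1 model with limma 3.58.1 in R 4.3.3 (degrees of freedom 13 residual, 2.63 prior). The p-values are two-sided, adjusted by the Benjamini-Hochberg method over all genes tested, at a threshold of 0.05. The procedure was tested on simulated data. The genes and lists were chosen with earlier results of these data known. Every gene of the set is accounted for. Genes that passed and members of a paralog pair are given by array or range, as are up to 4 passing genes of each list of other pathway genes, with Krt8, Adipoq, Csn2 and Stat5a. Cidec was added after its values were seen. Promoters were searched for letters on both strands. Alternatives covered scaling, offset, filter, probe sets, moderation, array weights, the arrays fitted and the actin ratio. Python 3.11.15 and matplotlib 3.10.9 made the figures.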

Additional observations from a re-analysis of the deposited data

Results flagged for a closer look

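In 70 groups of values, the 35 genes in each of the 2 tumour groups, 4 had 1 array far from the rest by Dixon's gap test, where chance alone gives about 1 in 20, or 3.5. On STAT5ca_177, Elovl6 had a log2 level of 5.04, with the nearest STAT5ca array at 7.93, and Me1 had 5.01, with the nearest at 8.83. This is the array with a Krt8 signal of 25.3. On STAT5ca_124, Acss2 stood at 10.15, with the nearest STAT5ca array at 7.89, a signal of 1129 against 229.9. On STAT5Δ750_178, Fasn stood at 11.50, with the nearest STAT5Δ750 array at 9.70, a signal of 2889 against 823. STAT5ca_124 and STAT5Δ750_178 had the highest adipocyte marker levels of their groups, 7.42 and 7.55, and the part of these markers in the high values was not tested. The glands, with 3 arrays, were not examined in this way.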

How the results depend on the processing

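No paired analysis was possible because the groups share no replicate number in the labels. Over the alternatives run, the calls of Fdps, Sqle and Scd2 held in 30 of 30 in both tumour types, as did Elovl6 in STAT5ca tumours and Fasn and Gpam in STAT5Δ750 tumours. The other calls held in 23 to 28. Besides the calls named in the results, Acss2 lost its call in STAT5Δ750 tumours without each gland in turn, without STAT5Δ750_165, STAT5Δ750_174 or STAT5Δ750_160, and with arrays scaled to a common median (adjusted p up to 0.12). Elovl6 lost its call in STAT5Δ750 tumours without gland 1 or 6 (up to 0.0766), Lpin1 there also without STAT5Δ750_160, Dhcr7 there without gland 6, and Stard4 without gland 1 or 4 and with the actin ratio (up to 0.0984). Gpam in STAT5ca tumours did not pass with the actin ratio (up to 0.0797). Elovl1 gained a call in STAT5ca tumours without STAT5ca_169, Ebp in both without gland 6, and Msmo1 and Srebf2 in STAT5Δ750 tumours without STAT5ca_213. No change that passed turned its sign.

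Leaving out 1 array at a time gave 963 (without gland 4) to 2864 (without STAT5ca_177) genes called in STAT5ca tumours, beside 1849. Of the 35 genes, 4 to 7 were higher (7 without STAT5ca_177) and 2 to 7 lower (2 without each gland, 7 without STAT5ca_124). Of all genes, 2.39% (without gland 4) to 13.4% (without STAT5ca_177) were higher and 8.01% to 17.5% lower, with 13.5% lower without STAT5ca_124. The sterol minus fatty acid median was 1.01 to 1.42. In STAT5Δ750 tumours leaving out 1 array gave 956 (without gland 4) to 2752 (without STAT5ca_177) genes called, beside 2007. There 4 to 7 of the 35 were higher and 2 to 6 lower, beside 2.62% to 11.8% of all genes higher and 7.70% to 17.9% lower. The sterol minus fatty acid median was 0.86 to 1.37. Between the tumour types there were 0 calls, and that median was -0.06 to 0.15. A common median shifts the median change of all genes by 0.28 in STAT5ca tumours and 0.12 in STAT5Δ750 tumours. For STAT5ca tumours it gave 8 members higher, and 1284 genes higher with 870 lower. In STAT5Δ750 tumours it gave 860 higher and 963 lower. Quantile normalization gave 870 higher and 1138 lower, and 894 and 1277 with 8 members higher in STAT5Δ750 tumours. Array quality weights gave 4825 and 4470 genes, 14 members higher in each tumour type (24.5% and 21.6% of all genes), and 7 lower in STAT5ca tumours (27.6%). With these weights Acly and Scd1 joined the members that fell in STAT5Δ750 tumours, beside 26.7% of all genes lower. With only the arrays of the 2 groups compared, 10 members were higher in STAT5Δ750 tumours, with 12.8% of all genes higher. The actin ratio gave 934 genes in STAT5ca tumours and 3 members higher in STAT5Δ750 tumours (5.53% of all genes). The filter at the 60th percentile gave median differences of 1.78 and 1.49, beside 1.14 and 1.04. Chosen after seeing the data, a common median without STAT5ca_177 gave 3038 genes and 10 members higher in STAT5ca tumours (19.7% of all genes), and 8 higher in STAT5Δ750 tumours (with 1204 of all genes). The causes of these shifts were not tested. Signals near the offset, such as those of Acaca, limit what can be read.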
